A study of Mus musculus with 170 samples.

Results

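Keratinocytes are the epithelial cells of the epidermis and hair follicle. Basal keratinocytes divide on the basement membrane and make keratins 5 and 14. Their daughters move outward, switch to keratins 1 and 10 and end as the dead cornified layer that forms the skin barrier. Under injury or inflammation keratinocytes turn on another set of keratins, alarmins, proteases and cytokines, through which they alert the immune cells of the skin. The question was which genes differed between keratinocytes of old and young mice.

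The comparison used all libraries labelled as skin keratinocytes, 7 of the 170 libraries of the series. The 3 old libraries came from mice aged 22 to 24 months and the 4 young libraries from mice aged 2 months. Both groups had a C57/Bl6 background, with no allele or agent in the labels, and the labels give no sex. Each library was made from poly(A) RNA of cells purified by flow cytometry from the pooled skin of 5 mice, so it is a mean over animals and a p-value reflects the spread between pools. The surface markers of the sort are not given in the sources used here. In such bulk samples a change in the share of a kind of cell and a change of RNA per cell cannot be told apart.

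The libraries held 1917368 to 2927868 counts, and 12367 of 55484 genes passed the filter on low counts. Spearman correlations over these genes ran from 0.9547 to 0.9647 within an age and from 0.9468 to 0.9614 between ages. Levels below are CPM, normalised counts scaled to a common library size. Differences are log2 fold changes, old minus young, with their standard error, and a gene was called where the adjusted p of edgeR's quasi-likelihood test was under 0.05. Coordinates are those of GRCm38, and the genes named are protein coding unless stated.

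The label was checked with Krt14 and Krt5, the keratin pair of basal keratinocytes. In raw CPM Krt14 had a median of 10510.0 in old and 6743 in young libraries, and Krt5 a median of 8658 in old and 6829 in young libraries. Both were therefore abundant in every keratinocyte library. Markers of most immune cells and of adipocytes were low. Of 11 macrophage and monocyte markers, 10 neutrophil markers, 7 mast cell markers, 6 B cell markers and 7 adipocyte markers, 0 passed the filter. The macrophage markers summed to 3.46 to 10.3 CPM in old and 1.28 to 8.44 CPM in young libraries. The fibroblast markers summed to 351 to 381 CPM in old and 365 to 461 CPM in young libraries, with Col1a1, Col1a2 and Col3a1 counted in every library and Pdgfra at 0 to 4.78 raw CPM. Dct, a melanocyte enzyme, stood at 36.0 to 39.6 raw CPM in old and 41.7 to 49.6 raw CPM in young libraries. Erythroid markers were uneven, with sums of 3.46 to 64.2 CPM in old and 4.27 to 129.6 CPM in young libraries. Hbb-bs, a globin, had 33.5 raw CPM in old replicate 2, 22.9 in young replicate 3 and 70.3 in young replicate 4. It had 0.427 to 1.84 raw CPM in the other libraries. The part of these cells in the results was not tested. Cd207, which marks Langerhans cells, had 0 to 3 counts in every library. Of the sex-linked genes, Xist stood at 401 to 930 raw CPM in the keratinocyte libraries. Ddx3y, Eif2s3y and Kdm5d of the Y chromosome stood at 0 to 0.813 raw CPM, and Uty at 0.406 to 4.16 raw CPM.

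Age changed few genes by this test. In old keratinocytes 38 genes rose (0.307% of those tested) and 24 fell (0.194%), 62 in all (0.501%). The libraries of the ages did not overlap for any of the 62, and they did not overlap for 13% of all genes tested (7.03% higher and 5.97% lower in old cells). Without a correction 1661 genes (13.4%) had a p under 0.05. The median log2 fold change of all genes was -0.006, as the scaling of the libraries centres the groups on each other. With each of the 7 libraries left out in turn, 18 of the 62 genes passed every time, 15 of them higher and 3 lower in old cells. They were Gpha2, Casp1, Casp4, Slurp2, Stfa3, Cstdc5, S100a6, Mmp3, Krt6a, Guca2a, Amhr2, Ide, Postn, Fgfbp3 and the long non-coding RNA A830008E24Rik among the higher genes, and Dlc1, Itih5 and the transcribed pseudogene Rps4l among the lower.

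**Figure D1:**
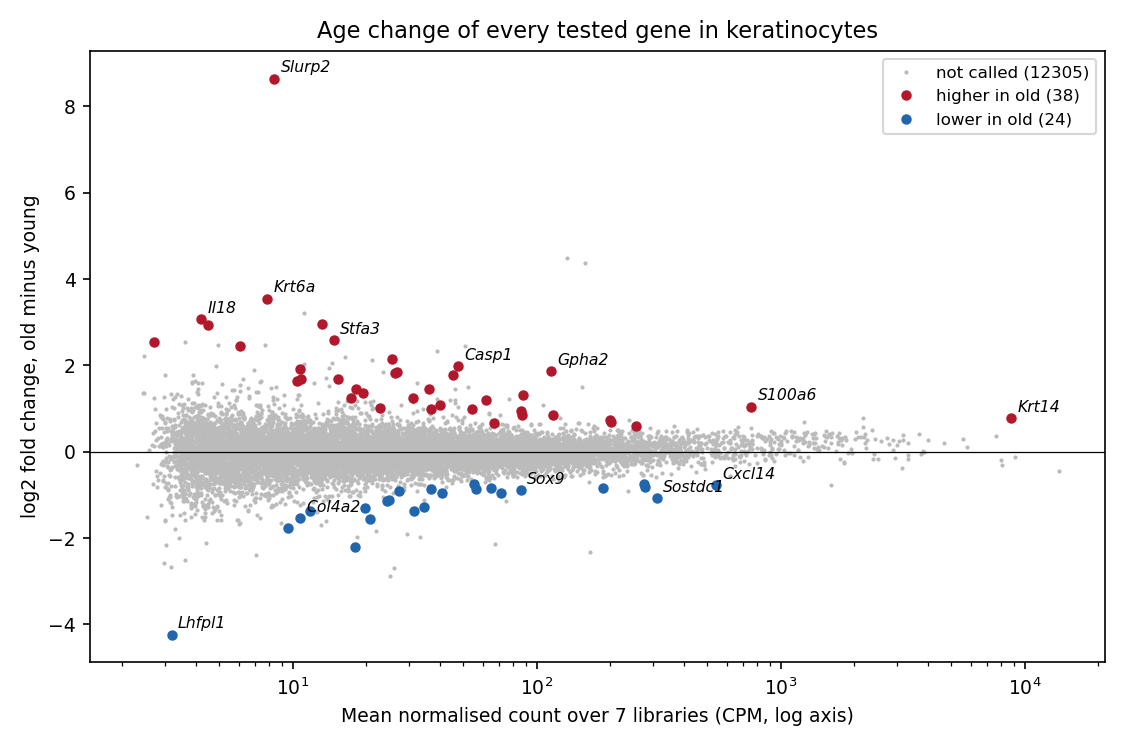
Log2 fold change (old minus young, vertical axis) of each of the 12367 tested genes against its mean level over the 7 libraries (CPM, log axis). Red points are the 38 genes higher and blue points the 24 genes lower in old keratinocytes. Krt14 is the called gene with the highest count, at a small fold change, while Krt6a and Il18 change more at a low level.

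The inflammatory caspases were among the genes that rose most. Casp1 encodes caspase-1, the inflammasome protease that cuts interleukin-1 beta and interleukin-18 into their active forms. It stood at 86.3, 87.8 and 76.2 CPM in old and 26.0, 12.1, 18.4 and 26.7 CPM in young libraries. Every old library lay far above every young one, and the gene rose by 1.99 ± 0.20 (adjusted p = 0.000473). Casp4 encodes caspase-11, the mouse protease that senses intracellular lipopolysaccharide. It had 109, 55.3 and 65.0 CPM in old and 19.8, 23.6, 21.2 and 24.2 CPM in young libraries and rose by 1.78 ± 0.21 (adjusted p = 0.00103). Old replicate 1 was the highest, and the ages did not overlap, which the rule for naming genes required. Il18 encodes interleukin-18, a substrate of caspase-1. It had 8.30, 8.11 and 8.85 CPM in old and 0.413, 2.63, 0 and 1.21 CPM in young libraries, and rose by 3.08 ± 0.59 (adjusted p = 0.0297). The old libraries were alike and the young ones scattered near 0.

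The 2 caspase genes are neighbours on chromosome 9, Casp1 at 5298517 to 5307265 and Casp4 at 5308828 to 5336783, both on the plus strand, with 1563 bp between them. Casp12, the next gene, had 11.8 ± 1.53 CPM in old and 3.28 ± 1.89 CPM in young libraries (SD) and a log2 fold change of 1.88 ± 0.40, and missed the threshold (adjusted p = 0.0536). Mmp3 lies on the same chromosome, 2109039 bp beyond Casp4. Between Casp4 and Mmp3, Dync2h1 and Dcun1d5 had log2 fold changes of 0.05 ± 0.19 and 0.00 ± 0.20. In the stretch that reaches 1000000 bp beyond Casp1 and Mmp3 on either side, 13 genes were tested and Casp1, Casp4 and Mmp3 were called.

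Among the cytokines and chemokines of keratinocytes, 16 of 28 listed genes were tested. Of these 2 rose and 1 fell, beside 0.307% and 0.194% of all genes tested, and the median log2 fold change was 0.162. Il18, with 0 to 5 counts in young libraries, passed the filter through its old libraries. The list was chosen with earlier results of these data known, so nothing is read from the count or the median. Ccl20, the ligand of CCR6 that attracts Langerhans precursors and T cells, had 19.9, 21.5 and 12.3 CPM in old and 7.84, 4.73, 6.71 and 2.83 CPM in young libraries and rose by 1.68 ± 0.34 (adjusted p = 0.0387). Cxcl14, a chemokine that resting epidermis makes constitutively, went the other way. It had 319, 396 and 445 CPM in old and 553, 595, 712 and 776 CPM in young libraries and fell by 0.77 on the log2 scale (SE 0.15, adjusted p = 0.0365). Il33, an alarmin of barrier epithelia, stood at 356 ± 68.6 CPM in old and 241 ± 25.1 CPM in young libraries (SD), with an adjusted p of 0.117. Ccl27a, a skin chemokine for T cells, stood at 2692 ± 439 CPM in old and 3488 ± 531 CPM in young libraries, with an adjusted p of 0.291. Zc3h12a, which encodes the ribonuclease Regnase-1 that degrades mRNAs of inflammatory cytokines, rose by 1.36 ± 0.27, with 22.2 to 41.9 CPM in old and 8.93 to 16.1 CPM in young libraries. Without old replicate 1 the adjusted p was 0.122 for Ccl20, 0.132 for Cxcl14 and 0.172 for Zc3h12a, and without old replicate 3 it was 0.101 for Il18, while Casp1 and Casp4 passed with any library left out.

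Genes of the stress and wound response included some of those that rose most. Of 21 listed genes 8 were tested, 3 rose (Stfa3, Krt6a and Mmp3) and 0 fell, beside 0.307% and 0.194% of all genes tested. The median log2 fold change of the 8 was 0.963. The list was chosen with earlier results of these data known, and the median leaves out the listed genes that were not tested. Krt6a, with 1 to 5 counts in young libraries, passed the filter through its old libraries. Nothing is therefore read from the count or the median. Stfa3, a stefin that inhibits cysteine proteases, had 36.5, 25.0 and 23.1 CPM in old and 3.71, 4.20, 6.71 and 3.64 CPM in young libraries and rose by 2.59 ± 0.29 (adjusted p = 0.000556). Krt6a, the keratin that epidermis makes after wounding, had 21.3, 8.46 and 19.6 CPM in old and 0.413, 2.10, 1.06 and 2.02 CPM in young libraries and rose by 3.55 ± 0.47 (adjusted p = 0.00282). In both genes the lowest old library lay above the highest young one by more than 3-fold. The partners that usually appear with Krt6a after wounding did not pass. Krt16 stood at 12.999 ± 2.78 CPM in old and 11.4 ± 2.04 CPM in young libraries (SD, adjusted p = 0.824), and Krt17 at 84.7 ± 18.6 CPM in old and 99.5 ± 16.3 CPM in young libraries (adjusted p = 0.585). Serpinb2, an inhibitor of plasminogen activators, had 658 ± 138 CPM in old and 478 ± 42.1 CPM in young libraries (adjusted p = 0.182).

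**Figure D2:**
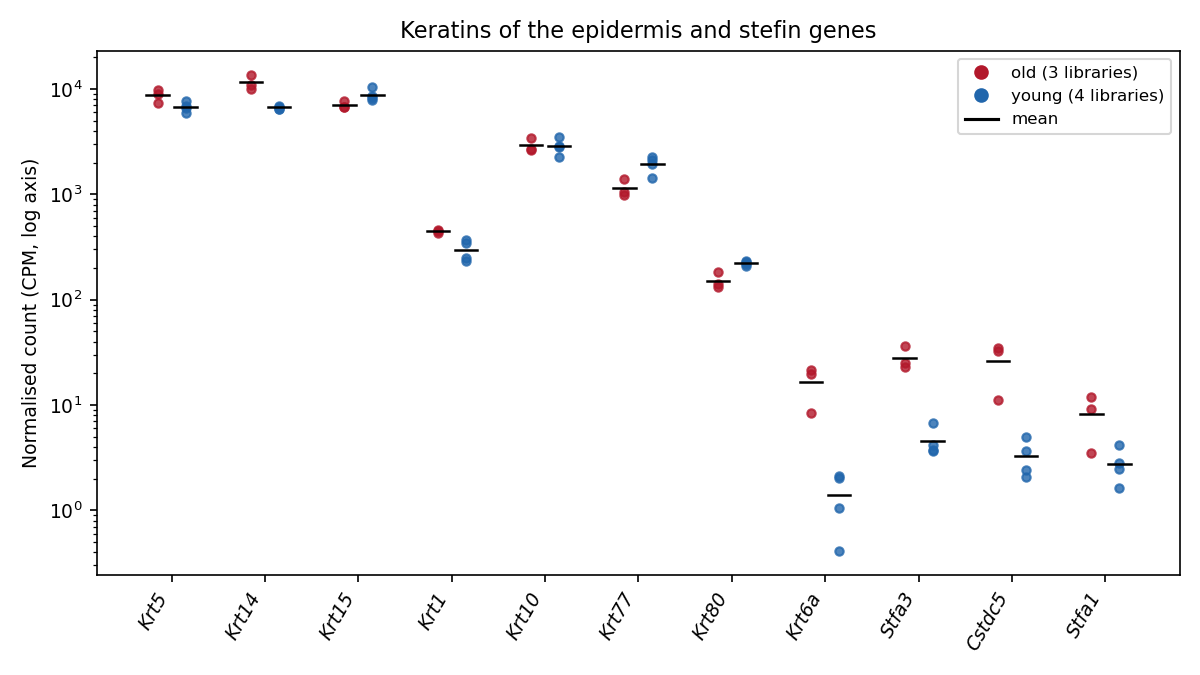
Level (CPM, log axis) of keratin and stefin genes in each library, old in red on the left and young in blue on the right of each gene, with the mean as a bar. Krt14, Krt6a, Stfa3 and Cstdc5 separate the ages and were called, while the other genes shown were not.

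Mmp3, which encodes stromelysin-1, a protease that cuts matrix proteins, had 46.6, 69.8 and 54.3 CPM in old and 21.5, 23.6, 19.4 and 18.2 CPM in young libraries. It rose by 1.47 ± 0.18 (adjusted p = 0.00112), with every old library at more than 1.5 times any young one. Other peptidases and inhibitors rose too. Klk10, a kallikrein-related peptidase, stood at 26.0 ± 4.61 CPM in old and 10.8 ± 2.90 CPM in young libraries (SD, log2 fold change 1.25 ± 0.25). Prss23, a serine protease, stood at 259 ± 43.7 CPM in old and 159 ± 7.25 CPM in young libraries (0.70 ± 0.13). Serpinb7, a serine protease inhibitor of the epidermis, stood at 117 ± 18.4 CPM in old and 64.6 ± 12.02 CPM in young libraries (0.85 ± 0.16). Without old replicate 1 the adjusted p of Klk10 was 0.144, that of Prss23 was 0.137 and that of Serpinb7 was 0.116.

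The stefin A genes of mouse chromosome 16 are near-identical copies, so reads may have been split or shared between them and their separate values are uncertain. Cstdc5 had 35.02, 11.3 and 32.7 CPM in old and 2.06, 3.68, 4.95 and 2.42 CPM in young libraries and rose by 2.97 ± 0.41 (adjusted p = 0.00336). Stfa1 had 11.9, 3.52 and 9.24 CPM in old and 2.48, 4.20, 2.83 and 1.62 CPM in young libraries, so that old replicate 2 fell inside the young range, and it missed the threshold (1.57 ± 0.47, adjusted p = 0.17). Csta1 missed it as well (1.23 ± 0.44, adjusted p = 0.25), and old replicate 2 was the lowest old library in both genes and in Cstdc5. Stfa2, Stfa2l1, Cstdc4 and Cstdc6 had 0 or 1 counts in every keratinocyte library. The promoters of Cstdc5, Stfa1 and Stfa3 are shown because these copies had the highest log2 fold changes of the family, each from 250 bases before to 50 bases after the RefSeq start on GRCm38.p6. They are Cstdc5 at chr16:36367521-36367820 (minus strand), Stfa1 at chr16:36276898-36277197 (plus strand) and Stfa3 at chr16:36455343-36455642 (minus strand), and capitals mark a run of 18 bases that all 3 share, which begins 20 bases after the start in Cstdc5 and spans the start in Stfa1 and Stfa3.
Cstdc5: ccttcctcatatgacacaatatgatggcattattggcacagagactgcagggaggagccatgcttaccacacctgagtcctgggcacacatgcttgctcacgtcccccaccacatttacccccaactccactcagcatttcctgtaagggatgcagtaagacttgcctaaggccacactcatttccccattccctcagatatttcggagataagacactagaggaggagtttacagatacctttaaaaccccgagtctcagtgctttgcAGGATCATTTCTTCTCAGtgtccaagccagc
Stfa1: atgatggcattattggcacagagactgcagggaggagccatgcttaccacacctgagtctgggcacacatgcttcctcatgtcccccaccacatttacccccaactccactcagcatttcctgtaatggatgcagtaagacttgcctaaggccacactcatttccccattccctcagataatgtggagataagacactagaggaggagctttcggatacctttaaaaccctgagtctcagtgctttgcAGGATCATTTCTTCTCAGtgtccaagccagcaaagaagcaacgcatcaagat
Stfa3: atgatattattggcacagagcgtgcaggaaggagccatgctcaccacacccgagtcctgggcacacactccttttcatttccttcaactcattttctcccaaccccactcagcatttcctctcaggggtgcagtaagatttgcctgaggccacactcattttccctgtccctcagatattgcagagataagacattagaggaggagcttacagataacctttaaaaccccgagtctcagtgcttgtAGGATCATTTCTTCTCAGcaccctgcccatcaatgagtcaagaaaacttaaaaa
Aligned over these windows, Cstdc5 and Stfa1 were 83.8% identical, Stfa1 and Stfa3 80.6%, and Cstdc5 and Stfa3 74.1%.

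RefSeq promoters were found for 45 of the 62 called genes, 30 higher and 15 lower. The letters TGANTCA, the consensus of the AP-1 factors that keratinocytes use in stress and differentiation, read on both strands, stood in the windows of 7 of the 30 higher genes and 0 of the 15 lower genes, against 6.19% of the 8691 tested genes with a promoter. TATAAA stood in 8 of the 30 and 0 of the 15, against 8.65%. A loose NF-kB pattern, GGG and CC with 5 unspecified bases between them, stood in 22 of the 30 and 14 of the 15, against 72.6%. The interferon regulatory factor pattern, GAAA repeated after 2 unspecified bases, stood in 1 and 1, against 3.46%. TTCNNNGAA, the STAT pattern, stood in 3 and 3, against 8.11%, and CACGTG, an E-box, in 3 and 0, against 1045 of the 8691 genes. The patterns were counted separately, whether or not their matches overlapped. These matches describe letters and are no evidence of binding, and no test was made of the shares. The AP-1 letters, in capitals, are shown in their surroundings for 6 of the 7 genes, those described here by name: Stfa3 at chr16:36455345-36455375 (minus strand), Mmp3 at chr9:7445764-7445794 (plus), Guca2a at chr4:119637520-119637550 (plus), Gpnmb at chr6:49036514-49036544 (plus), Serpinb7 at chr1:107422632-107422662 (plus) and Prss23 at chr7:89518332-89518362 (minus).
Stfa3: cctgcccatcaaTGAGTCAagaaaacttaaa
Mmp3: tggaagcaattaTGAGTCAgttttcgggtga
Guca2a: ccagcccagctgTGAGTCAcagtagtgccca
Gpnmb: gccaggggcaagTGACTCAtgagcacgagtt
Serpinb7: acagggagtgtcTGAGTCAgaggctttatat
Prss23: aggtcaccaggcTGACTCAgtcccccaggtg

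S100 proteins bind calcium, and some are released by stressed epithelium. S100a8 and S100a9 had 0 to 5 counts in every keratinocyte library and did not pass the filter. S100a6 had 1123, 1113 and 987 CPM in old and 510.5, 458, 615 and 498 CPM in young libraries and rose by 1.05 ± 0.13 (adjusted p = 0.00103). S100a4, its neighbour on chromosome 3, had 44.4, 50.4 and 44.3 CPM in old and 11.6, 26.3, 26.5 and 14.5 CPM in young libraries and rose by 1.24 ± 0.24 (adjusted p = 0.0367). The old libraries were alike in both genes, and the young ones were more scattered in S100a4, whose adjusted p was 0.0922 without young replicate 4.

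Among the basal keratins Krt14, Krt5 and Krt15, Krt14 alone was called, and no difference between keratins was tested. Krt14 had 13718, 9918 and 11002 CPM in old and 6508, 6791, 6965 and 6480.5 CPM in young libraries and rose by 0.79 ± 0.13 (adjusted p = 0.0118). The young libraries lay within a narrow range and each old one was clearly above it, but the adjusted p was 0.0719 without young replicate 4. Krt5, its partner, had 9026, 7337 and 9701 CPM in old and 6554, 7749, 6901 and 5956 CPM in young libraries. Here the ages overlapped, and Krt5 missed the threshold (0.36 ± 0.14, adjusted p = 0.272). Krt15, a keratin of basal and bulge cells, had 7073 ± 532 CPM in old and 8790.3 ± 1156 CPM in young libraries (SD, -0.31 ± 0.13, adjusted p = 0.322). Of the 20 genes of the basal list, Krt14 alone rose and 0 fell, beside 0.307% and 0.194% of all genes tested. The median log2 fold change of the list was -0.0474.

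Among suprabasal genes 0 passed, beside 0.501% of all genes tested, so 0 calls in lists of this size say little. In the spinous list 20 of 20 genes were tested, with a median log2 fold change of -0.0508. Krt77 had 1059, 1392 and 986 CPM in old and 2266, 2124, 1425 and 1945 CPM in young libraries and came closest (-0.76 ± 0.17, adjusted p = 0.0625). Krt1 had 449.8 ± 15.7 CPM in old and 299 ± 68.2 CPM in young libraries (SD, adjusted p = 0.128), and its partner Krt10 had 2923 ± 427 CPM in old and 2856 ± 505 CPM in young libraries (adjusted p = 0.952). In the granular and cornified list 14 of 33 genes were tested, with 7 above and 7 below 0. Flg2, a filaggrin relative, had 9.91 ± 1.48 CPM in old and 4.18 ± 1.43 CPM in young libraries (adjusted p = 0.152). Of the 16 tested genes of barrier lipid synthesis and the 25 of cell junctions, 0 were called in either direction.

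Genes of the hair follicle changed in both directions. In the upper follicle list 14 of 15 genes were tested and Klk10 alone rose. Of the bulge stem cell list 18 of 25 genes were tested, and 1 rose and 1 fell. Beside these lists, 0.307% of all genes tested rose and 0.194% fell. Postn, which encodes the matrix protein periostin, had 189.9, 94.8 and 116 CPM in old and 54.1, 49.4, 54.0 and 55.7 CPM in young libraries and rose by 1.32 ± 0.20 (adjusted p = 0.0049). Sox9, a transcription factor needed to form and keep bulge stem cells, had 52.7, 66.6 and 53.5 CPM in old and 98.2, 77.7, 133 and 118 CPM in young libraries and fell by 0.90 on the log2 scale (SE 0.18, adjusted p = 0.0387). Sostdc1, a secreted antagonist of BMP and Wnt signals, had 140.1, 238 and 191 CPM in old and 322, 346, 579 and 353 CPM in young libraries and fell by 1.08 (SE 0.21, adjusted p = 0.0369). For neither gene did the ages overlap, which the rule for naming genes required. Young replicate 3 was the highest library in both, and the adjusted p was 0.149 for Sox9 without old replicate 3 and 0.122 for Sostdc1 without old replicate 1. The keratins of hair shaft and inner root sheath were mostly too low to test, with 4 of 29 listed genes tested and 0 called.

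Wnt signals keep basal and follicle stem cells dividing. Wnt16 had 55.6, 39.8 and 43.1 CPM in old and 82.9, 90.3, 98.6 and 87.3 CPM in young libraries and fell by 0.96 on the log2 scale (SE 0.15, adjusted p = 0.0076, or 0.0506 without old replicate 3). It was the called gene among the 23 tested of the Wnt list, while 0.194% of all genes tested fell. Axin2, a common target of the pathway, had 105 ± 20.7 CPM in old and 151 ± 13.1 CPM in young libraries (SD, adjusted p = 0.153), the co-receptor Lrp6 64.3 ± 3.96 CPM in old and 90.5 ± 6.22 CPM in young libraries (adjusted p = 0.122), and the ligand Wnt10b 25.7 ± 1.62 CPM in old and 12.1 ± 4.94 CPM in young libraries (adjusted p = 0.128). None of these passed.

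Genes of secreted peptides and a hormone subunit were among those that rose, and Gpha2 had the lowest p of the comparison. Gpha2 (chr19:6226380-6227768) encodes the alpha subunit of the glycoprotein hormone thyrostimulin. It had 179, 235 and 171 CPM in old and 54.1, 61.97, 49.8 and 47.3 CPM in young libraries and rose by 1.88 ± 0.15 (adjusted p = 4.01e-05). Both ages were tight and far apart, and the highest adjusted p with a library left out was 0.000681. Guca2a, for guanylin, a peptide known from the intestine, had 56.3, 59.6 and 56.6 CPM in old and 23.5, 28.4, 30.4 and 26.3 CPM in young libraries and rose by 1.08 ± 0.15 (adjusted p = 0.00336). Slurp2 encodes a secreted Ly6-type peptide that keratinocytes release and that acts on nicotinic receptors. It had 161 counts over the old libraries (30.0, 12.7 and 16.2 CPM) and 0 in every young library, so its level was at least 60.1-fold higher in old keratinocytes when the young group is put at a floor of 3 counts over the group. Slurp2 was picked out after its values were seen.

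Further genes that rose included Steap4, a metalloreductase of plasma and endosomal membranes, with 76.2, 20.1 and 40.4 CPM in old and 7.02, 13.1, 12.01 and 9.29 CPM in young libraries (log2 fold change 2.14 ± 0.36, adjusted p = 0.0137). Gpnmb, a glycoprotein of melanosomes and lysosomes, had 62.8, 21.5 and 49.3 CPM in old and 8.25, 16.3, 11.7 and 14.1 CPM in young libraries (1.83 ± 0.32, adjusted p = 0.015). In both, old replicate 2 came closest to the young libraries. The melanocyte markers, to which Gpnmb does not belong here, summed to 43.3 to 55.2 CPM in old and 55.3 to 70.3 CPM in young libraries, and their part in the result was not tested. Pls1, for the actin-bundling protein plastin 1, had 20.8 to 31.4 CPM in old and 4.59 to 10.3 CPM in young libraries (1.69 ± 0.28, adjusted p = 0.0118). Ide, the insulin-degrading enzyme, had 117, 117 and 125 CPM in old and 70.2, 67.2, 52.6 and 57.0 CPM in young libraries and rose by 0.96 ± 0.14 (adjusted p = 0.00396). Without old replicate 1 the adjusted p was 0.0687 for Gpnmb and 0.0641 for Pls1, and without young replicate 1 it was 0.0631 for Steap4.

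**Figure D3:**
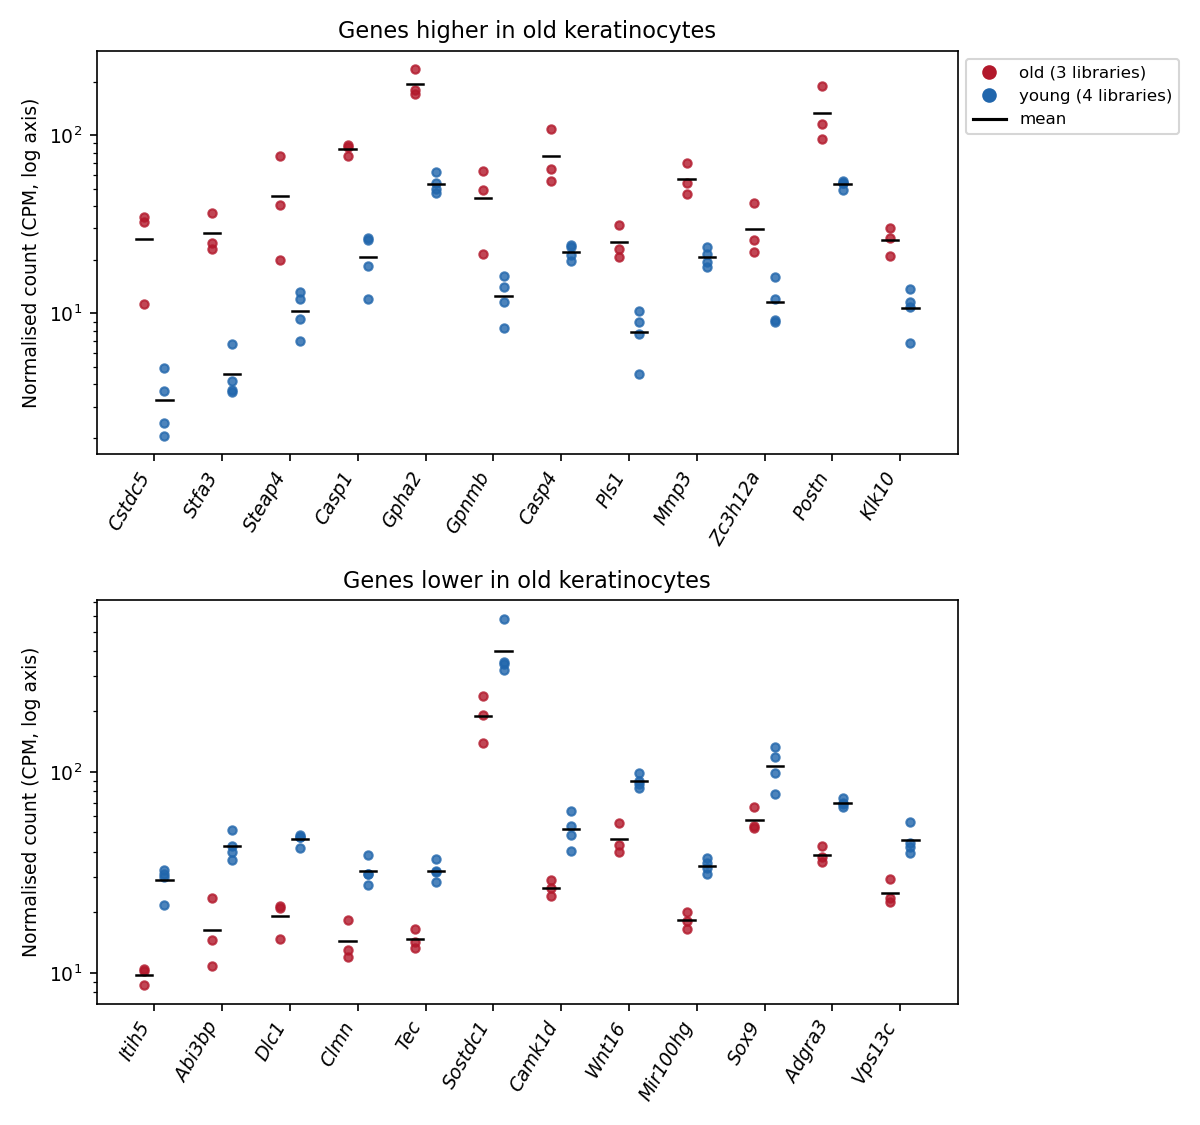
Level (CPM, log axis) in each library of the 12 genes with the highest (top) and the 12 with the lowest (bottom) log2 fold change at 20 CPM or more, old in red on the left and young in blue on the right of each gene, with the mean as a bar. That the ages do not overlap was a condition for choosing the 24 genes. The old libraries scatter most for Steap4, Gpnmb and Cstdc5.

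Of the genes that fell, those with the lowest log2 fold change at 20 CPM or more by the naming rule follow. The rule passes over the pseudogene Rps4l and the lower-level genes Lhfpl1 and Srgap1, whose log2 fold changes were -2.21, -4.23 and -1.75. Itih5, which encodes a heavy chain of the inter-alpha-trypsin inhibitor family that binds hyaluronan, had 8.66, 10.2 and 10.4 CPM in old and 21.9, 29.9, 31.1 and 32.3 CPM in young libraries and fell by 1.56 on the log2 scale (SE 0.23, adjusted p = 0.00437). Abi3bp, an extracellular matrix protein, had 10.8, 23.6 and 14.6 CPM in old and 40.0, 36.2, 51.2 and 42.8 CPM in young libraries and fell by 1.38 (SE 0.24, adjusted p = 0.015). Dlc1, a GTPase-activating protein, had 20.9, 14.8 and 21.6 CPM in old and 48.3, 47.3, 42.0 and 47.7 CPM in young libraries and fell by 1.28 (SE 0.18, adjusted p = 0.00336). Each of these genes held its old libraries below every young one, which the naming rule required.

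Clmn, an actin-binding membrane protein, averaged 14.4 ± 3.43 CPM in old and 32.0 ± 4.72 CPM in young libraries (SD, log2 fold change -1.15 ± 0.22). Tec, a cytoplasmic tyrosine kinase, averaged 14.7 ± 1.66 CPM in old and 32.3 ± 3.48 CPM in young libraries (-1.12 ± 0.19). Camk1d, a calcium/calmodulin-dependent kinase, averaged 26.5 ± 2.33 CPM in old and 51.7 ± 9.91 CPM in young libraries (-0.96 ± 0.18). Adgra3, an adhesion receptor, Vps13c, a lipid transfer protein, and Mir100hg, a non-coding host transcript of microRNAs, fell by 0.86 (SE 0.14), 0.85 (SE 0.18) and 0.91 (SE 0.18) on the log2 scale. These calls were less stable than those of Itih5 and Dlc1. With a library left out the highest adjusted p was 0.12 for Clmn, 0.0718 for Tec, 0.114 for Camk1d, 0.0641 for Adgra3, 0.177 for Vps13c and 0.122 for Mir100hg, in each case without old replicate 1 or 3. For Abi3bp it was 0.0728 without old replicate 3.

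Collagens and matrix genes were tested for 22 of 26 listed members, with 0 higher, 1 lower and a median log2 fold change of -0.142. Among all genes tested 0.307% rose and 0.194% fell. Col4a2, for a chain of basement membrane collagen IV, had 5.41, 4.58 and 5.39 CPM in old and 15.7, 14.2, 17.3 and 12.5 CPM in young libraries and fell by 1.54 (SE 0.28, adjusted p = 0.0246, or 0.0754 without young replicate 3). Its head-to-head neighbour Col4a1 overlaps it by a few bases on the other strand and had 9.09 ± 3.16 CPM in old and 15.1 ± 0.717 CPM in young libraries (SD, adjusted p = 0.271). Txnip, a binder of thioredoxin that limits glucose uptake, had 180.5, 172 and 227 CPM in old and 302, 416, 362 and 280.3 CPM in young libraries and fell by 0.82 (SE 0.16, adjusted p = 0.0318). Fbxo32, a ubiquitin ligase subunit known from muscle wasting, had 227, 181 and 187 CPM in old and 317, 306, 369.9 and 334 CPM in young libraries and fell by 0.74 (SE 0.13, adjusted p = 0.0168). The ages were separate in both, though without old replicate 1 the adjusted p of Txnip was 0.116 and without old replicate 3 that of Fbxo32 was 0.102.

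Housekeeping and cell cycle lists leaned upward with 0 genes called, beside 0.501% of all genes tested. All 39 genes of the proliferation list were tested, 38 had a log2 fold change above 0, and the median was 0.441, beside 49.1% of all genes above 0. An unadjusted p under 0.05 with a higher level in old cells was found for 25 of the 39, beside 7.08% of all genes. Mcm4, a subunit of the replicative helicase, had 48.0, 38.8 and 61.2 CPM in old and 30.5, 25.2, 32.1 and 26.7 CPM in young libraries (0.78 ± 0.18, adjusted p = 0.0855). Mki67, the common proliferation marker, had 155, 106 and 125 CPM in old and 93.3, 74.6, 96.4 and 124 CPM in young libraries and overlapped between the ages (adjusted p = 0.325). For the 40 ribosomal protein genes 39 were above 0, with a median of 0.314, and they summed to 62420 to 68220 raw CPM in old and 47080 to 61040 raw CPM in young libraries. All genes with ribosomal protein names took 12.4 to 13.6% of counts in old and 9.09 to 11.98% in young libraries, and the part of this difference in the lists was not tested. Oxidative phosphorylation genes encoded in the nucleus had 30 of 33 above 0 (median 0.187) and cholesterol synthesis genes 18 of 21 (median 0.214). Rpl10a, which is not in the list of 40, passed by itself at 316 ± 27.6 CPM in old and 208 ± 21.2 CPM in young libraries (SD, 0.60 ± 0.13, adjusted p = 0.0497), but not without old replicate 1 (adjusted p = 0.162).

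**Figure D4:**
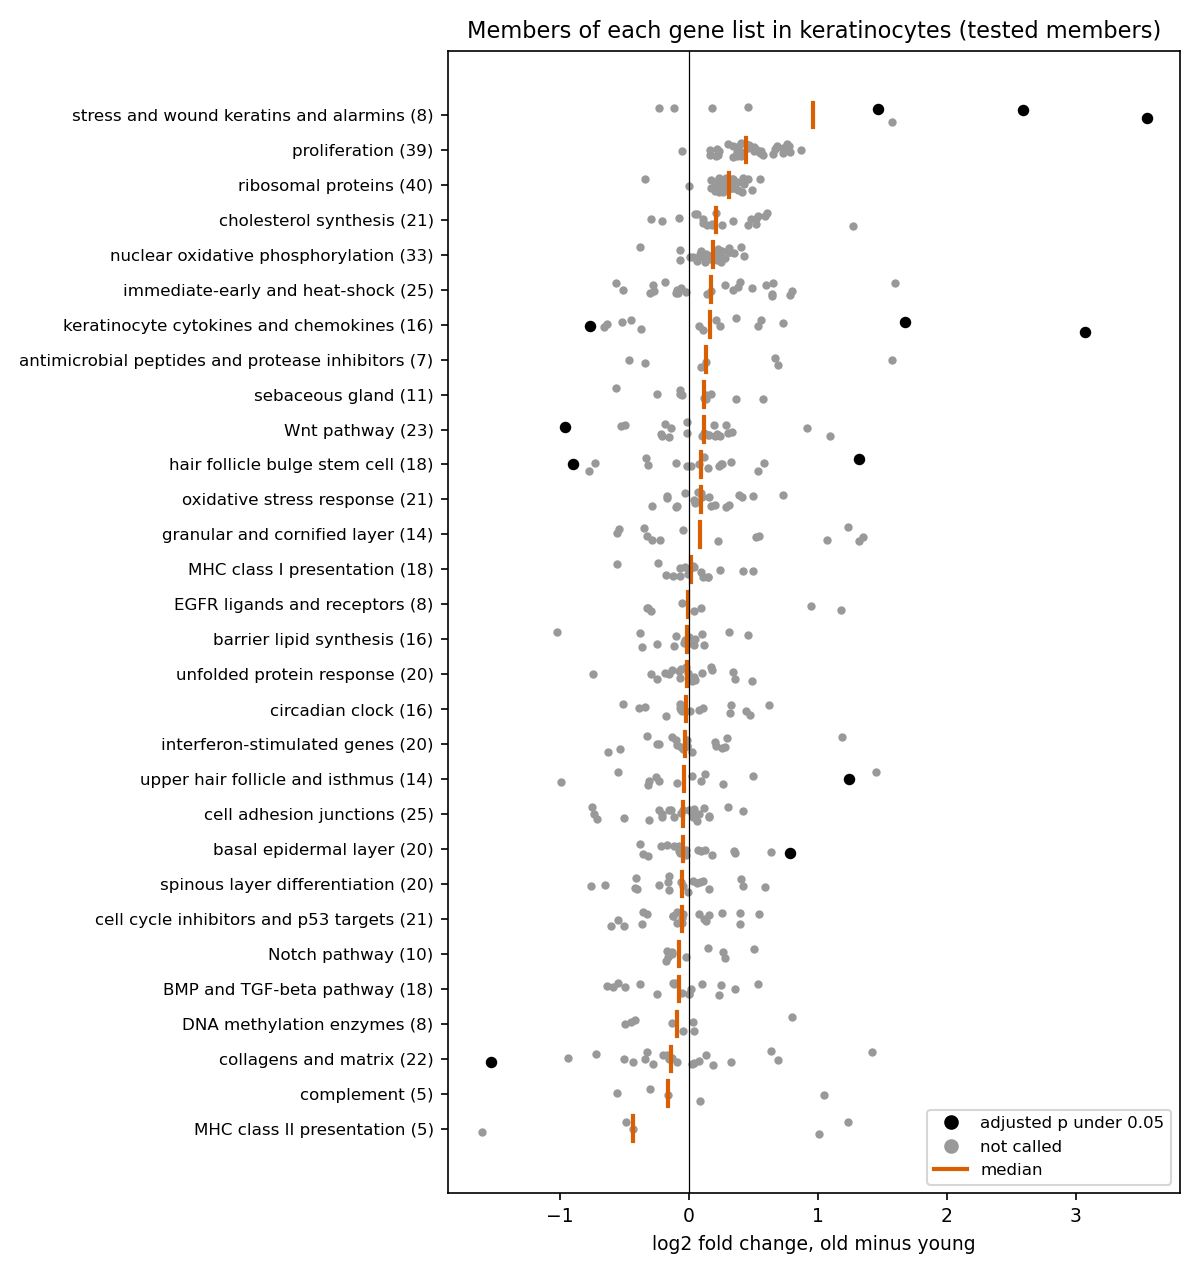
Log2 fold change (old minus young, horizontal axis) of the tested members of each gene list with at least 5 of them, their number in brackets. Black points were called and grey points were not, and the orange bar is the median. The proliferation and ribosomal lists sit to the right of 0 with 0 genes called, while the stress list holds 3 called genes far to the right.

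In the other lists 0 genes were called, beside 0.501% of all genes tested, so 0 calls say little here too. Of class I antigen presentation 18 genes were tested with a median of 0.0174, and B2m, the light chain, had 4306 ± 137 CPM in old and 3222 ± 225 CPM in young libraries (SD, 0.42 ± 0.11, adjusted p = 0.137). Of 42 interferon-stimulated genes 20 were tested with a median of -0.0305, and Ifi27l2a came closest at 24.4 ± 5.43 CPM in old and 10.8 ± 2.83 CPM in young libraries (adjusted p = 0.0625). Among 21 tested cell cycle inhibitors and p53 targets the median was -0.0571, and Cdkn1a, for the inhibitor p21, had 564 ± 54.2 CPM in old and 708 ± 139 CPM in young libraries (adjusted p = 0.347). Immediate-early and heat-shock genes (25 tested, median 0.172), which can respond to tissue dissociation, clock genes (16 tested, median -0.024) and Notch genes (10 tested, median -0.0758) gave no call either.

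Thy1, a surface glycoprotein of T cells, fibroblasts and neurons, was the called gene among markers of other cells. It had 101, 81.1 and 93.1 CPM in old and 40.4, 38.3, 24.0 and 57.0 CPM in young libraries and rose by 1.201 ± 0.21 (adjusted p = 0.0164, or 0.0719 without young replicate 2). Of the 14 T cell markers 3 were tested. The defining genes Cd3d, Cd3e and Cd3g had 0 to 4 counts in every library, and Trbc2 stood at 50.7 ± 11.8 CPM in old and 56.4 ± 11.99 CPM in young libraries (SD). The T cell list with Thy1 summed to 145 to 153 raw CPM in old and 77.7 to 124 raw CPM in young libraries. Thy1 itself gave 78.6 to 96.6 raw CPM of the old and 23.9 to 57.3 raw CPM of the young sums. The sum therefore carries the rise of Thy1, and nothing is read from it about T cells.

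Thymic epithelial cells, 5 old and 5 young libraries of the same ages, also make Krt5 and Krt14 and served to show where the age change of keratinocytes differed. The difference between the age changes passed for 568 of 15603 genes (3.64%), being more positive in keratinocytes for 244 (1.56%) and more negative for 324 (2.08%). Of the 62 genes called in keratinocytes it passed for 27, 15 of those that rose and 12 of those that fell. The 62 were chosen on a contrast that enters this difference, so nothing is read from that share. Cxcl14 had a log2 fold change of -0.77 in keratinocytes and 0.99 in thymic epithelial cells (difference -1.75 ± 0.21, adjusted p = 2.15e-05). S100a6 had 1.05 in keratinocytes and -0.47 in thymic cells (1.51 ± 0.21, adjusted p = 0.00012), and Itih5 -1.56 in keratinocytes and 0.94 in thymic cells (-2.49 ± 0.25, adjusted p = 2.95e-06). In these 3 genes both cell types changed, in opposite directions. The adjusted p in thymic cells alone was 0.00077 for Cxcl14 and 0.000334 for Itih5, but 0.0489 for S100a6, just under the threshold. Among all genes tested in thymic cells alone 6.4% rose and 5% fell.

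Gpha2 had 1.88 in keratinocytes and -0.18 in thymic cells (difference 2.06 ± 0.32, adjusted p = 0.000331), Casp1 had 1.99 in keratinocytes and 0.46 in thymic cells (1.54 ± 0.30, adjusted p = 0.0031), and Sox9 had -0.90 in keratinocytes and 0.48 in thymic cells (-1.37 ± 0.30, adjusted p = 0.00858). For these 3 the thymic change itself did not pass. The difference did not pass for Krt14, with 0.79 in keratinocytes and 0.69 in thymic cells (0.11 ± 0.19, adjusted p = 0.83), nor for Postn (0.10 ± 0.30, adjusted p = 0.908), Mmp3 (0.23 ± 0.24, adjusted p = 0.674), Ide (0.17 ± 0.24, adjusted p = 0.766) or Sostdc1 (0.49 ± 0.33, adjusted p = 0.461). Each of these 5 changed in the same direction in thymic cells alone, with adjusted p of 0.00125, 0.000264, 4e-05, 0.00583 and 0.000175 in that order.

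**Figure D5:**
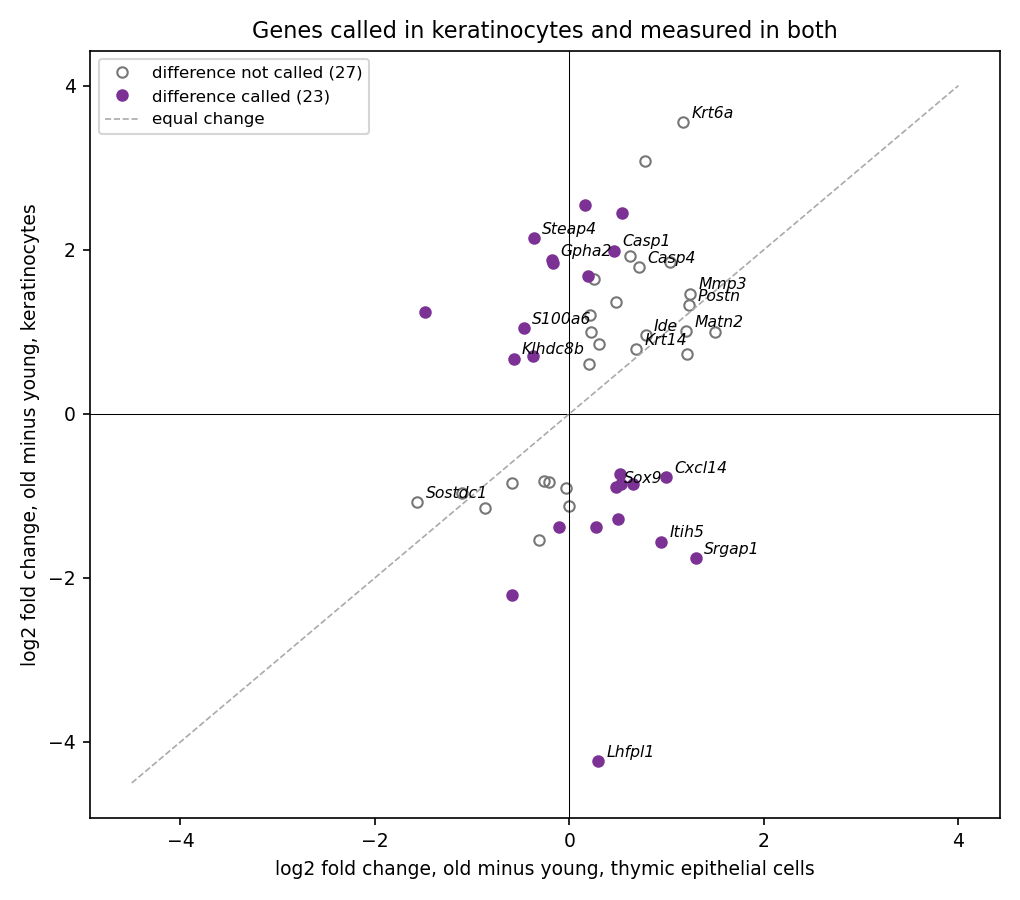
Log2 fold change, old minus young, in keratinocytes (vertical axis) against thymic epithelial cells (horizontal axis) for the 50 of 62 called genes that could be tested in thymic cells alone. Filled points are the 23 genes whose change differed between the cell types and open points the other 27, and the dashed line marks equal change. Cxcl14, Itih5 and Srgap1 lie below and right of 0, while Krt14, Mmp3 and Postn lie near the line.

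By the rule for names the genes with the highest and lowest differences included several that changed with age in thymic cells. Fgf7, a growth factor for epithelia, had 2.44 ± 0.794 CPM in old and 2.54 ± 0.772 CPM in young keratinocytes, and 101 ± 18.5 CPM in old and 5.17 ± 2.19 CPM in young thymic cells (SD, difference -4.15 ± 0.51). Irx2, a homeobox gene, had 51.1 ± 4.46 CPM in old and 61.4 ± 18.3 CPM in young keratinocytes, and 6.36 ± 2.30 CPM in old and 0.407 ± 0.44 CPM in young thymic cells (-4.04 ± 0.57). Popdc3 had 34.7 ± 5.37 CPM in old and 32.4 ± 4.15 CPM in young keratinocytes. It was at 0 in the old and 0.66 ± 0.702 CPM in the young thymic libraries, near the floor. Irx2 and Popdc3 were not tested in thymic cells alone, so no thymic age change is read for them. In Fgf7, Irx2 and Popdc3 the means of old and young keratinocytes differed by less than the larger of their SDs. Slurp2 and Cstdc5 met the rule as well. S100a9, Vsig8, Lin7a, Otoa, Abca8a and Stc1 also passed and averaged under 3 CPM in both keratinocyte groups. Several of these calls were lost with 1 library left out. The adjusted p was 0.117 for S100a9 and 0.0703 for Abca8a without old keratinocyte replicate 2, 0.1525 for Lin7a and 0.168 for Stc1 without young keratinocyte replicate 4, and 0.109 for Popdc3 without young thymic replicate 5. Popdc3 passed in 6 of 21 alternatives. Cstdc5 had an adjusted p of 0.132 without young thymic replicate 4. Trim30a, an interferon-inducible gene, met the rule through old keratinocyte replicate 3 alone, which had 182 raw CPM, against 2.42 and 3.76 in the other old and 0.522 to 0.855 in the young libraries. Without that library the adjusted p of its difference was 0.281.

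The population labelled as skin fibroblasts, 3 old and 3 young libraries, was set beside keratinocytes as the other sort from skin. Its markers go against the label in part. Krt14 had a median of 7588 raw CPM in its old and 7452 raw CPM in its young libraries, and Krt10 a median of 7246 and 5573 raw CPM, above the 2588 and 2884 raw CPM of old and young keratinocytes. Col1a1, a fibroblast collagen, had medians of 453 and 737 raw CPM there. With edgeR 0 of 13278 genes differed in age change between the 2 sorts, 917 had an unadjusted p under 0.05, and DESeq2 called 1. Within the fibroblast sort 0 genes were called with age, so the values are given side by side. Gpha2 averaged 106.8 ± 14.0 CPM in old and 30.1 ± 22.8 CPM in young libraries of that sort (log2 fold change 1.82 ± 0.41), and Casp1 averaged 48.7 ± 15.9 CPM in old and 16.1 ± 5.42 CPM in young libraries (1.59 ± 0.31). Both thus stood higher in the old libraries there too, without passing. Mmp3 (0.12 ± 0.27), Postn (0.06 ± 0.19) and Krt14 (0.12 ± 0.24) had differences close to 0 in that sort. Slurp2, which had 0 counts in young keratinocytes, had 934 to 2057 counts in the old and 293 to 1472 counts in the young libraries of the fibroblast sort.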

How the data were processed

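The authors deposited a table of whole-number counts per gene (55484 genes, 170 libraries), with no normalization. Per the labels' protocols, libraries were primed at poly(A) with a 3' bias, sample indexes of 8 bp and molecular identifiers of 10 bp, and reads were assigned to samples with sabre 80faf94. The submitters' processing notes name STAR, featureCounts 2.0.1, GRCm38.p6 and mm10. Whether identifiers were used to remove copies, and the strand setting of counting, are not given in the labels. Each of the 37 mitochondrial genes had 0 counts in keratinocytes. Samples were grouped by title.

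Old and young keratinocytes were compared with edgeR 4.0.16 in R 4.3.3 (glmQLFit and glmQLFTest, TMM scaling, filterByExpr at min.count 10 and min.total.count 15), with Benjamini-Hochberg adjustment over all genes tested and a threshold of 0.05. Differences between age changes were tested as the interaction term of a model of 4 groups. Tested genes held 98.7% of counts, and 12216 of them matched GENCODE M21. The common biological coefficient of variation was 0.178. No library was a copy of another: between replicates the chi-square was 4.68 or more per degree of freedom. The members and gene lists were chosen with earlier results of these data known. Named genes were the 12 highest and 12 lowest log2 fold changes among called genes whose libraries do not overlap and whose higher age averaged 20 CPM or more, without sex-linked genes, unnamed models, pseudogenes and antisense genes (26 higher and 18 lower genes qualified). From each list up to 4 called members and the 3 of highest level could be named, and 6 per direction from each interaction. Called genes outside the rule, list members beside the highest ones and the genes around the caspases were named after their values were seen. Promoters are RefSeq windows of GRCm38.p6.

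Alternatives were RLE size factors, no filter, DESeq2 1.42.0, a stricter filter (mean of at least 5 CPM), the replicate number as a block, and leaving out each library. On simulated counts with 200 changed genes over 12036 genes, the keratinocyte test recovered 62.1% of 2-fold and 95.2% of 4-fold changes, with 10% false calls. The thymic difference recovered 14% and 66.3% over 14938 genes, and the skin fibroblast difference 13.2% and 77.5% over 12831. For these differences each gene was simulated from the same mean level in both cell types. The rates therefore do not describe genes whose level differs between the cell types.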

Additional observations from a re-analysis of the deposited data

Results flagged for a closer look

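Among 171 genes screened, the young libraries held 1 library far from the others in 6, while chance gives about 1 in 20. Young replicate 3 stood apart for Sostdc1 at 579 CPM, above the others, and for Dlc1 at 42.04 CPM, below them. It was also apart for Usp18 and Fasn, at 43.45 CPM each. Young replicate 2 stood apart for Cers3 at 96.1 CPM, and young replicate 1 for Col7a1 at 231.1 CPM.

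For 27 of the 62 called genes the age change differed between keratinocytes and thymic epithelial cells by the interaction test. It did so for 3.64% of all genes tested. The 62 were chosen on a contrast that enters this difference, so nothing is read from their share. The log2 difference, keratinocytes minus thymic cells, was positive for Gpha2 (2.06), Casp1 (1.54), S100a6 (1.51), Cstdc5 (5.14), A830008E24Rik (2.04), Pls1 (1.4999), Pid1 (1.91), Steap4 (2.51), Gpnmb (2.06), Prss23 (1.07), S100a4 (2.73), Ccl20 (3.10), Dpyd (2.40) and Klhdc8b (1.25). It was positive for Slurp2 too, with an adjusted p of 0.000213 in edgeR, where 0 counts in young keratinocytes allow no fitted fold. It was negative for Rps4l (-1.62), Dlc1 (-1.78), Itih5 (-2.49), Adgra3 (-1.37), Abi3bp (-1.65), Fbxo32 (-1.25), Lhfpl1 (-4.54), Cxcl14 (-1.75), Sox9 (-1.37), Srgap1 (-3.05), Cdc14b (-1.27) and Vps13c (-1.49). Slurp2, Cstdc5, A830008E24Rik and Ccl20 were under 3 CPM in both thymic groups. With 1 library left out, 7 of the 27 lost the call. The highest adjusted p was 0.132 for Cstdc5 and 0.0971 for Ccl20 without young thymic replicate 4, 0.115 for Gpnmb and 0.0548 for Prss23 without old keratinocyte replicate 1, 0.0929 for Vps13c and 0.0898 for Cdc14b without old keratinocyte replicate 2, and 0.0788 for Pid1 without old keratinocyte replicate 3. Ccl20 passed in 9 of 21 alternatives.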

How the results depend on the processing

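None of the 62 called genes turned its direction under an alternative that gave it a value, and 18 passed under all that did. Of these Amhr2 had no value under DESeq2 and the stricter filter. The count of called genes was 61 with RLE size factors and 53 with the stricter filter. It was 374 with no filter (251 higher, 123 lower) and 136 with DESeq2 (90 higher, 46 lower), of which 58 were among the 62 and 4 of the 62 had no adjusted p. With 1 library left out the counts ran from 30 (without old replicate 1) to 94 (without old replicate 2), 22 to 70 for higher and 7 to 24 for lower genes. For the difference from thymic epithelial cells the counts of 568, with 244 more positive and 324 more negative, were 739 with no filter and 839 with DESeq2 (370 more positive), and with 1 library left out 388 to 622 (211 to 349 more negative, 211 being without old keratinocyte replicate 2). For the difference from the skin fibroblast sort the count of 0 became 115 with no filter (83 more positive, 32 more negative), 1 with DESeq2 (more positive), and 0 to 2 with a library left out, 2 being without young fibroblast replicate 2.

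With the replicate number as a block 90 genes were called in keratinocytes, 52 of them among the 62, and 362 (140 more positive) for the thymic difference. Deviations of same-numbered old and young libraries correlated at 0.142, 0.00427 and -0.0177, and those of differently numbered ones at -0.125 to 0.129. So few values cannot decide whether the numbers pair the libraries. The cause of the moves in the counts of called genes was not tested.

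Depth limits the low genes: 13 of the 62 stood under 20 CPM in both ages. Il18, Krt6a, Slurp2, Amhr2 and Dpyd had 0 to 5 counts in every young library. Counts of stefin copies and of genes that overlap on opposite strands (Gpha2 and Ppp2r5b, Col4a1 and Col4a2) are uncertain.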

Other observations

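Some transcripts were far higher in 1 keratinocyte library than in the others, picked out after their values were seen. Trim30c had 246 raw CPM in old replicate 2 and 0 to 0.736 in the other libraries. Rps19-ps4, a pseudogene, had 812 raw CPM in old replicate 1 and 11.8 to 15.4 in the others. Rps3a3 had 344 raw CPM in young replicate 3, against 15.4 to 28.0 in the others. None of these was called.

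Chromosome 9 held 8 of the 62 called genes, 13.6% of the calls with a position, against 5.71% of tested genes with one. They were Casp1, Casp4, Mmp3, Il18, Thy1, Pls1, Klhdc8b and Vps13c, spread from the caspases near one end to Klhdc8b. No test was made of this share.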
